A study of Anthurium andraeanum with 18 samples.

Results

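MH leaves were compared with Ken leaves of the ornamental aroid Anthurium andraeanum after 3 days at 38 °C by day and 33 °C by night, over all 158,487 genes of the deposited table. Both sides have 3 RNA-seq libraries, so 6 of the 18 libraries of the series enter the comparison. The MH_38 group holds MH leaves and the Ken_38 group Ken leaves, all from full-flowering plants kept at 25 °C for 3 days before the warming, with 12 h of light and 12 h of dark. Unheated leaves, 3 libraries of MH and 3 of Ken from plants that stayed at 25 °C, show which differences the 2 materials already had. The other 6 libraries, from plants moved on to 40 °C by day and 35 °C by night, entered the estimate of spread and, beside the others, the counts of genes with no reads in any library of a material. The genotype field of the labels is empty, so MH and Ken are used here as the names of 2 plant materials and nothing more. Replicates carry the word biological in their titles, but no label ties them to separate plants. The p-values below rest on a spread within groups, estimated over all 18 libraries together, and that spread may be technical. Genes are de novo assembled sequences with identifiers that begin with TRINITY, and 39,786 of them carry a Swiss-Prot or nr description. Gene names below are those of the matched Swiss-Prot entries, and the roles given are the ones known from Arabidopsis thaliana, rice and other model plants.

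In a heated leaf, heat stress transcription factors (HSFs) switch on genes for chaperones, which hold or refold proteins that lose their shape. Proteins that cannot be refolded are tagged with ubiquitin and cut up by the 26S proteasome, a cylinder of core alpha and beta subunits capped by a regulatory particle of ATPases and non-ATPase subunits, while larger clumps and organelles are removed by autophagy. Photosynthesis is among the processes of a leaf that are most sensitive to heat, and chlorophyll and its binding proteins are normally made in step.

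The 6 libraries held 18,289,312 to 21,366,599 estimated counts, and no library of the series held fewer than 15,845,190. The libraries of MH_38 were not alike. Over log2 values of all tested genes, replicates 1 and 2 correlated at 0.96, whereas replicate 3 correlated with them at 0.881 and 0.865, and with the mean of unheated MH at 0.889, against 0.777 and 0.755 for replicates 1 and 2. The 3 Ken_38 libraries correlated at 0.965 to 0.968 with each other. In Ken_38 replicate 2, 2.59% of the counts fell on rRNA-like transcripts, against 0.380% to 0.795% in the other 5 libraries. Undescribed genes took 16.6% to 17.9% of the counts in MH_38 and 13.0% to 15.03% in Ken_38. Where leaving out MH_38 replicate 3 moves a named gene's fold difference at 38 °C by more than 1.5 times, the value without it is given too. The light-harvesting antenna genes that define a green leaf summed to 98,263 ± 9,629 TPM in unheated MH and 62,400 ± 7,647 TPM in unheated Ken (SD, n = 3 each), so these defining genes of a leaf were present at high level. TPM is scaled by gene length and by library, and is the level given below. In whole leaves, fewer cells of one type and less RNA per cell cannot be told apart.

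Of the 70,022 genes with enough counts to test, 24,268 differed between MH_38 and Ken_38 (34.7%), 13,951 of them higher in MH_38 (19.9%) and 10,317 lower (14.7%). The test was edgeR's quasi-likelihood test over all 18 libraries with Benjamini-Hochberg adjustment, and a gene is called higher or lower where its adjusted p is below 0.05. Among the 29,143 tested genes with a description, 37.4% differed, 18% higher and 19.4% lower in MH_38. The direction of the whole depends on how libraries are scaled. Of all calls, 57.49% were higher in MH_38 under TMM scaling, 65.52% with RLE size factors, 66.21% with TMM factors taken from described genes and 71.55% with library totals alone. Library totals moved the median log2 difference of all tested genes up by 0.305, and single genes by differing amounts. The median log2 difference was 0.24 over all tested genes and -0.03 over described ones. TPM carries no TMM factor, and ratios of TPM lie above the fitted log2 differences in some genes and below them in others. Of the calls, 49 were higher with a lower mean TPM in MH_38 and 188 lower with a higher one, and none of the genes named below is among them.

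**Figure D1:**
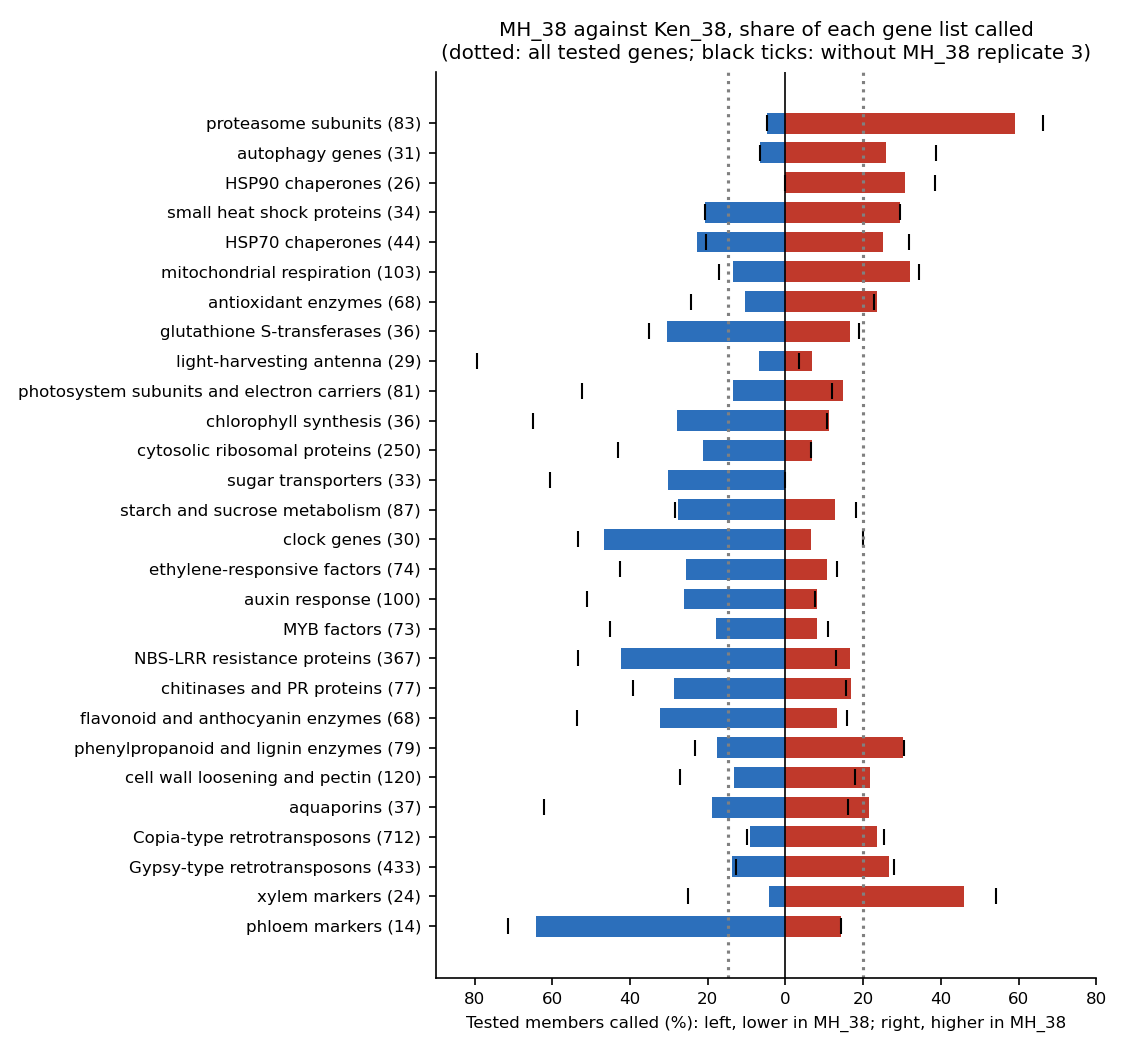
Share of the tested members of each gene list that was called higher (red, to the right) or lower (blue, to the left) in MH_38 against Ken_38 leaves, in percent. Dotted lines mark the shares over all tested genes, 19.9% higher and 14.7% lower, and black ticks give the shares without MH_38 replicate 3. Among the bars drawn, that of the proteasome subunits reaches furthest to the right and that of the phloem markers furthest to the left.

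Proteasome genes stood higher in MH_38 than in Ken_38 leaves, and the core subunits most of all. Of 83 tested proteasome entries, 49 were higher (59.0%, beside 19.9% of all tested genes) and 4 lower (4.82%, beside 14.7%), with a median log2 difference of 0.64. Their summed level was 5411, 6222 and 3896 TPM in MH_38, against 2597, 2482 and 2497 TPM in Ken_38, so all 3 MH_38 leaves lay above all 3 Ken_38 leaves, replicate 3 included. Unheated leaves had 2894 ± 176 TPM in MH and 3216 ± 58.6 TPM in Ken (SD, n = 3 each), and 6 entries were higher and 10 lower in unheated MH. In the test of the difference at 38 °C against the difference at 25 °C, 39 of the 83 entries were called with MH higher in the heat and 0 with MH lower. Over all tested genes 6.07% and 4.78% were called in these directions.

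Among the proteasome's parts, the core beta subunits, which carry the cutting sites, were higher in 22 of 24 tested entries and lower in 0 (median 0.93). The core alpha subunits, which form the gates of the cylinder, were higher in 11 of 18 and lower in 1 (median 1.01). The regulatory ATPases, which unfold substrates, were higher in 6 of 15 and lower in 0 (median 0.42). That count fell to 3 without MH_38 replicate 1, MH_38 replicate 2 or Ken_38 replicate 1 and was 11 without MH_38 replicate 3. The non-ATPase subunits were higher in 10 of 26 and lower in 3 (median 0.38), with 6 higher without MH_38 replicate 1 and 1 lower without MH_38 replicate 1 or 2 or Ken_38 replicate 1 or 2. Over the whole proteasome list, the 4 lower calls became 2 without any 1 of those 4 libraries.

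**Figure D2:**
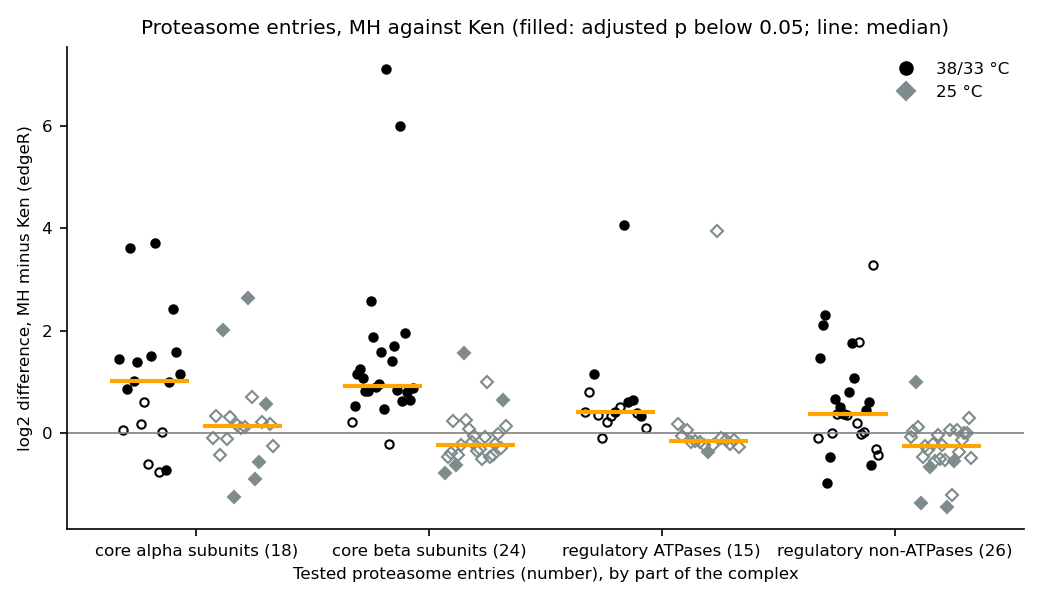
Log2 difference of MH against Ken for each tested proteasome entry, by part of the complex, at 38/33 °C (black circles) and at 25 °C (grey diamonds). Filled symbols are called at adjusted p below 0.05 and orange lines are medians. The core alpha and core beta medians at 38/33 °C are 1.01 and 0.93, and most entries lie near 0 at 25 °C.

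The alpha-2 core subunit PAB1 had the smallest adjusted p of the list. Its entry TRINITY_DN47028_c0_g2 had 204, 223 and 178 TPM in MH_38, against 19.8, 18.6 and 18.4 TPM in Ken_38. It already stood higher in unheated MH, with 70.2 ± 6.48 TPM against 24.8 ± 3.47 TPM in unheated Ken (SD, n = 3 each). The log2 difference was 3.63 ± 0.19 (SE) at 38 °C (adjusted p = 1.03e-11) and 2.01 at 25 °C, and it was larger at 38 °C by 1.62 (adjusted p = 0.000194). A further PAB1 entry, TRINITY_DN59354_c0_g1, had 134, 165 and 115 TPM in MH_38 and 26.1, 23.5 and 26.4 TPM in Ken_38 (log2 2.42 ± 0.16, adjusted p = 2.74e-10). Summed over all 3 entries named PAB1, MH_38 leaves had 340.4 ± 47.2 TPM and Ken_38 leaves 45.3 ± 2.12 TPM (SD, n = 3 each).

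Other core and lid subunits were called in the heat and not at 25 °C. The trypsin-like core subunit PBB2 (TRINITY_DN57736_c1_g3) had 218, 292 and 126 TPM in MH_38 and 45.9, 50.3 and 49.97 TPM in Ken_38. Its log2 difference was 1.97 ± 0.21 at 38 °C (adjusted p = 2.81e-07), against -0.02 at 25 °C. RPN11 (TRINITY_DN38920_c0_g3), the lid enzyme that removes ubiquitin from substrates, had 66.8, 86.7 and 34.1 TPM in MH_38 and 12.9, 11.1 and 10.6 TPM in Ken_38 (log2 2.31 ± 0.24, adjusted p = 3.19e-07). In both genes replicate 3 was the lowest MH_38 leaf and still above every Ken_38 leaf. An entry of PBA1 (TRINITY_DN50771_c1_g1), the core subunit with caspase-like activity, had 28.0, 35.9 and 6.99 TPM in MH_38 and 0, 0.07 and 0.26 TPM in Ken_38 (log2 7.12 ± 0.68, adjusted p = 3.90e-07). Without Ken_38 replicate 3 its log2 difference was 9.01, and 6.53 without Ken_38 replicate 1. Over all 7 PBA1 entries the gap was far smaller, 215 ± 78.2 TPM in MH_38 and 93.8 ± 12.4 TPM in Ken_38 (SD, n = 3 each).

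The 4 lower entries were named RPN5A, PAG1, RPN13 and RPN2A. RPN5A (TRINITY_DN41950_c0_g1), a lid subunit, had 22.4, 24.8 and 55.8 TPM in MH_38 and 58.4, 58.3 and 59.8 TPM in Ken_38. Its log2 difference was -0.98 ± 0.26 (adjusted p = 0.00625) and -1.62 without MH_38 replicate 3, the leaf nearest to Ken_38. RPN5A was already lower in unheated MH (log2 -1.36, adjusted p = 0.00068), and its difference between the temperatures was not called (adjusted p = 0.576). The log2 difference of PAG1 (TRINITY_DN58637_c0_g2), an alpha subunit, was -0.72 ± 0.16 (adjusted p = 0.00203). At 25 °C that of PAG1 was -0.56 (adjusted p = 0.0142), and the difference between the temperatures was not called (adjusted p = 0.778). Over all 3 PAG1 entries the order was the other one, with 123 ± 23.8 TPM in MH_38 and 61.6 ± 2.94 TPM in Ken_38 (SD, n = 3 each). The calls of RPN13 (TRINITY_DN61367_c1_g2) and RPN2A (TRINITY_DN46875_c2_g2) were lost under library totals, RLE size factors and DESeq2, among others, and RPN13's log2 difference of -0.63 ranged between -1.10 without MH_38 replicate 3 and -0.38 without MH_38 replicate 2. Neither RPN13 nor RPN2A was called at 25 °C (log2 0.01 and -0.46).

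Autophagy genes were called higher at a share nearer to that of all genes than the proteasome was. Of 31 tested autophagy entries, 8 were higher and 2 lower in MH_38 (25.8% and 6.45%, beside 19.9% and 14.7% of all tested genes; median 0.14), and 14 were higher under library totals. The lower count was 1 without any single library other than MH_38 replicate 3. Their sum was 948, 1000 and 615 TPM in MH_38 and 574, 512 and 546 TPM in Ken_38, whereas at 25 °C 1 entry was higher and 7 lower in MH. ATG8C (TRINITY_DN54145_c0_g1), a ubiquitin-like protein that coats the autophagosome membrane, had 97.96, 149 and 28.4 TPM in MH_38 and 30.7, 27.4 and 25.1 TPM in Ken_38. Replicate 3 of MH_38 lay within the range of Ken_38 and the other MH_38 leaves above it (log2 1.60 ± 0.35, adjusted p = 0.00244). ATG12 (TRINITY_DN57883_c0_g1), another ubiquitin-like protein of this pathway, had 25.2, 18.4 and 24.5 TPM in MH_38 and 13.5, 13.9 and 13.5 TPM in Ken_38 (log2 0.81 ± 0.20, adjusted p = 0.00336). ATG101 (TRINITY_DN52553_c0_g1), part of the kinase complex that starts autophagy, was lower, with 4.68, 4.23 and 8.06 TPM in MH_38 and 12.9, 15.3 and 12.4 TPM in Ken_38 (log2 -1.11 ± 0.27, adjusted p = 0.00309). With a further ATG101 entry added, the sums were 37.2 ± 5.12 TPM in MH_38 and 30.5 ± 1.32 TPM in Ken_38 (SD, n = 3 each).

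Chaperones did not move as a block. Of 26 tested HSP90 entries, 8 were higher and 0 lower in MH_38 (30.8% and 0%, beside 19.9% and 14.7% of all tested genes). The higher count was 3 without MH_38 replicate 1, MH_38 replicate 2 or Ken_38 replicate 1, 5 without Ken_38 replicate 2 and 4 without Ken_38 replicate 3. HSP90 levels summed to 6404, 5638 and 2946 TPM in MH_38 and 2912, 2942 and 3226 TPM in Ken_38, so replicates 1 and 2 stood above Ken_38 and replicate 3 among its leaves. All 5 tested entries of HSP90-6, the mitochondrial HSP90, were among the 8, and each was also called in the difference between 38 °C and 25 °C. The entry TRINITY_DN57096_c1_g1 had 60.6, 60.2 and 38.4 TPM in MH_38 and 17.8, 17.8 and 20.01 TPM in Ken_38. It had 6.11 ± 0.721 TPM in unheated MH and 9.89 ± 1.29 TPM in unheated Ken (SD, n = 3 each), and its log2 difference was 0.90 ± 0.22 at 38 °C (adjusted p = 0.00316) and -1.05 at 25 °C. The entry TRINITY_DN47249_c2_g2 had 113, 125 and 74.1 TPM in MH_38 and 53.6, 51.9 and 52.8 TPM in Ken_38 (log2 0.70 ± 0.17, adjusted p = 0.0032). Of the other HSP90-6 entries, TRINITY_DN56007_c0_g1 kept its call without any single library, while TRINITY_DN56007_c0_g3 and TRINITY_DN47249_c2_g1 did not, with adjusted p of up to 0.108 and 0.126.

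Small heat shock proteins (sHSPs), which hold unfolded proteins until they can be refolded, summed to 42,941, 30,333 and 27,175 TPM in MH_38 and 34,443, 33,806 and 37,671 TPM in Ken_38, so the groups overlapped. Of 34 tested entries 10 were higher and 7 lower (29.4% and 20.6%, beside 19.9% and 14.7% of all tested genes). The median was 0.15 (-0.03 without MH_38 replicate 1), and the lower count was 4 without MH_38 replicate 2. At 25 °C 14 were higher and 6 lower in MH, beside 10.1% and 11.7% of all tested genes. In the difference between the temperatures 2 were higher and 9 lower, beside 6.07% and 4.78% of all tested genes. Single entries stood far apart in both directions. HSP16.9B (TRINITY_DN56683_c0_g1) had 0 counts in all 3 MH_38 leaves and 29.8, 34.8 and 35.9 TPM in Ken_38, at least 32.5-fold lower against a floor of 3 counts a library. HSP16.9C (TRINITY_DN49648_c1_g1) had 1937, 1071 and 1172 TPM in MH_38 and 0, 3.00 and 0 TPM in Ken_38 (log2 10.14 ± 1.42, adjusted p = 0.000353), and its log2 difference was 13.61 without Ken_38 replicate 2, the one Ken_38 leaf with reads. The difference was 9.56 without Ken_38 replicate 1 and 9.54 without Ken_38 replicate 3. The class IV protein HSP22.0 (TRINITY_DN36928_c2_g3) had 1816, 1555 and 825 TPM in MH_38 and 326, 294 and 448 TPM in Ken_38 (log2 2.92 ± 0.74, adjusted p = 0.00966). Both HSP16.9C and HSP22.0 were already called higher in unheated MH, with log2 differences of 10.41 (adjusted p = 0.00452) and 3.66 (adjusted p = 0.00508). Neither was called in the difference between the temperatures (adjusted p = 0.964 and 0.74). An HSP18.1 entry (TRINITY_DN37313_c2_g1) had 34.6, 25.4 and 33.8 TPM in MH_38 and 114, 134 and 119 TPM in Ken_38 (log2 -2.21 ± 0.21, adjusted p = 6.61e-08), whereas over both HSP18.1 entries the means were 349 ± 138 TPM in MH_38 and 239.5 ± 20.4 TPM in Ken_38 (SD, n = 3 each). Near-identical copies and alleles share reads in such a family, so a level that sits on one entry in MH and on another in Ken cannot be told apart from a change in the level of the protein's message.

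HSP70 chaperones summed to 13,033, 11,812 and 10,792 TPM in MH_38 and 14,001, 12,823 and 13,616 TPM in Ken_38. Of 44 tested entries 11 were higher and 10 lower (25% and 22.7%, beside 19.9% and 14.7% of all tested genes). Only 5 were higher without any 1 library other than MH_38 replicate 3. In unheated leaves 18 were higher and 3 lower in MH, and the difference between the temperatures was called with MH higher at 38 °C in 1 entry and with MH lower in 11.

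The HSFs gave 3 higher and 3 lower entries of 22 tested (13.6% each, beside 19.9% and 14.7% of all tested genes). The lower count was 6 without MH_38 replicate 3 and 1 without any other single library, and the median of -0.13 was 0.20 under library totals, 0.06 with RLE factors and 0.08 with factors of described genes. HSFA2B, the rice name of a strongly heat-induced HSF, was spread over 2 entries that went opposite ways. The entry TRINITY_DN48213_c0_g3 had 117, 146 and 43.3 TPM in MH_38 and 1.55, 2.36 and 4.68 TPM in Ken_38 (log2 4.67 ± 0.70, adjusted p = 0.000287). The entry TRINITY_DN41438_c1_g1 had 252, 219 and 304 TPM in MH_38 and 316, 349 and 365 TPM in Ken_38 (log2 -1.06 ± 0.21, adjusted p = 0.000481). Summed over both, HSFA2B had 361 ± 11.4 TPM in MH_38 and 346 ± 26.7 TPM in Ken_38 (SD, n = 3 each). HSFA3 (TRINITY_DN52649_c2_g1), an HSF that acts late in the heat response in Arabidopsis, had 101, 125 and 122 TPM in MH_38 and 39.8, 61.4 and 45.2 TPM in Ken_38. Unheated leaves had the other order, 10.3 ± 1.07 TPM in MH and 50.1 ± 8.87 TPM in Ken (SD, n = 3 each). The log2 difference was 0.996 ± 0.32 at 38 °C (adjusted p = 0.0259), and it exceeded that at 25 °C by 3.42 ± 0.47 (adjusted p = 0.000244). The call at 38 °C was lost without any 1 library except Ken_38 replicate 2, with adjusted p of up to 0.124.

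**Figure D3:**
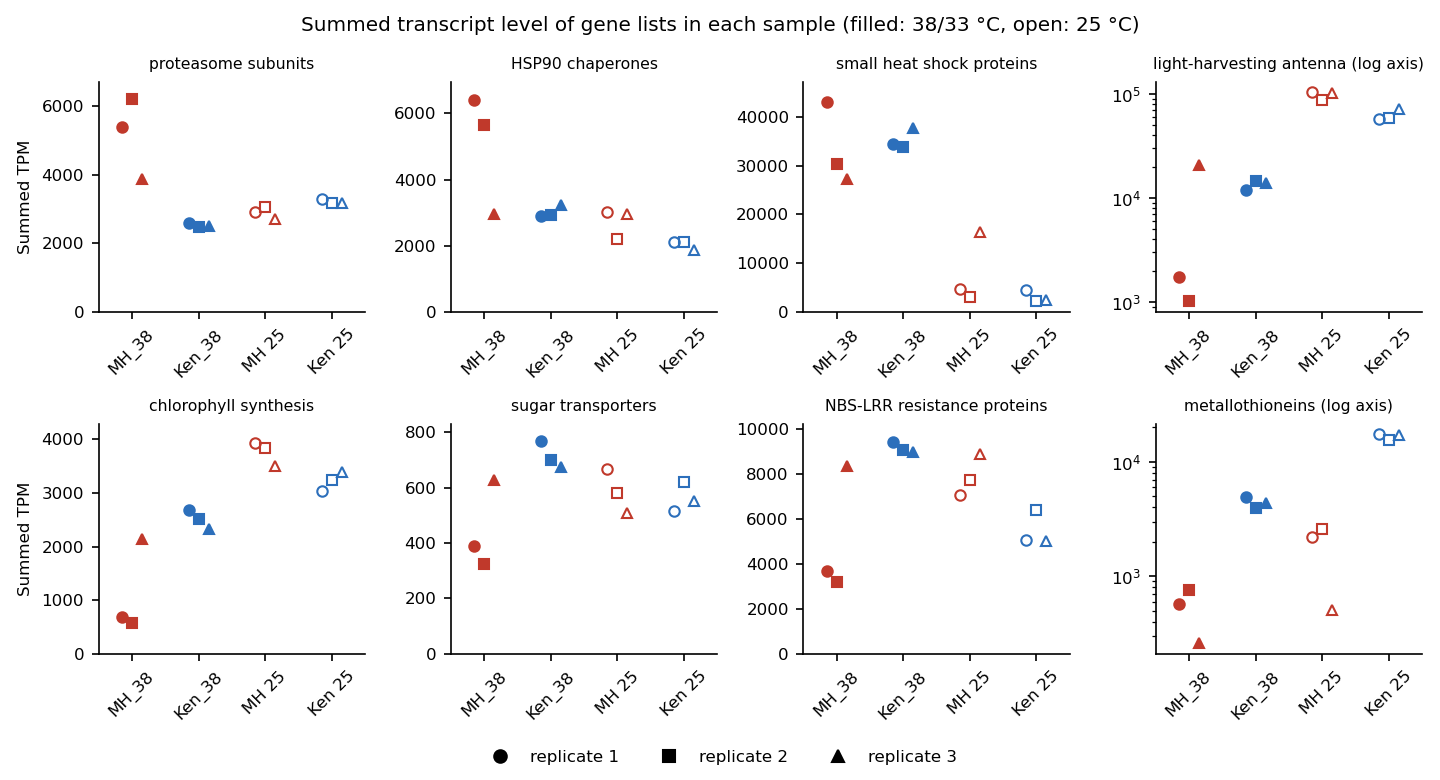
Summed TPM of 8 gene lists in each leaf library of MH_38, Ken_38, unheated MH and unheated Ken, in that order from the left, with filled markers for 38/33 °C, open ones for 25 °C and a marker shape for each replicate. The antenna and metallothionein panels have log axes. Proteasome sums are 3896 to 6222 TPM in MH_38 and 2482 to 2597 TPM in Ken_38, and MH_38 replicate 3 stands apart from replicates 1 and 2 in the antenna panel.

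By their summed levels, photosynthesis genes were far lower in MH_38 replicates 1 and 2 than in Ken_38 leaves, and not in replicate 3. Antenna proteins, which bind chlorophyll and gather light, summed to 1751, 1010.0 and 20,866 TPM in MH_38 and 11,868, 14,513 and 13,960 TPM in Ken_38. With all 3 MH_38 leaves 2 of 29 tested antenna entries were higher and 2 lower (6.90% each, beside 19.9% and 14.7% of all tested genes, with a median of -0.82). Without replicate 3 there was 1 higher and 23 lower (median -3.55). Only 1 was lower without MH_38 replicate 1 and 0 without MH_38 replicate 2, and the higher count was 1 without MH_38 replicate 1 or any 1 Ken_38 leaf. The subunits of the photosystems and electron carriers behaved alike as a whole list, with sums of 4337, 3074 and 17,679 TPM in MH_38 and 13,478, 16,136 and 14,215 TPM in Ken_38. Of 81 tested, 12 were higher and 11 lower with all leaves (14.8% and 13.6%), and 10 higher and 44 lower without MH_38 replicate 3. There were 6, 7 and 5 lower without MH_38 replicate 1, MH_38 replicate 2 and Ken_38 replicate 2, and the higher count 7 without Ken_38 replicate 1. Plastid-genome entries of this list did not share the pattern, with 160, 145 and 165.5 TPM in MH_38 and 179, 266 and 146 TPM in Ken_38. Of 22 tested, 5 were higher and 4 lower, with 5 and 5 without MH_38 replicate 3 and 1 lower without Ken_38 replicate 2. Of 59 nuclear-genome entries 7 were lower, and 39 of 61 without MH_38 replicate 3.

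Calvin cycle enzymes, which fix carbon, summed to 2268, 1356 and 10,240 TPM in MH_38 and 4497, 4981 and 5823 TPM in Ken_38. Of 25 tested entries 3 were higher and 4 lower (12% and 16%, beside 19.9% and 14.7% of all tested genes). Without MH_38 replicate 3, 14 were lower, while the higher count was 1 without Ken_38 replicate 2. The Rubisco small subunit entry SSU26 (TRINITY_DN50220_c0_g3) belonged almost wholly to MH. It had 388, 229.9 and 2482 TPM in MH_38 and 3.75, 7.27 and 10.3 TPM in Ken_38 (log2 8.03 ± 1.06, adjusted p = 0.000113; 6.13 without MH_38 replicate 3), and at 25 °C 15,395 ± 581 TPM in MH and 78.7 ± 25.8 TPM in Ken (SD, n = 3 each). PPD7 (TRINITY_DN33766_c0_g1), a chloroplast protein of the PsbP family, went against the division among the MH_38 leaves. Its levels were 17.4, 12.8 and 13.3 TPM in MH_38 and 85.2, 60.4 and 45.95 TPM in Ken_38 (log2 -2.39 ± 0.36, adjusted p = 9.26e-05), with 12.7 ± 1.93 TPM in unheated MH and 9.95 ± 1.16 TPM in unheated Ken (SD, n = 3 each).

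Chlorophyll synthesis differed in the same direction in all 3 MH_38 leaves, by the sum. Its genes added up to 684 and 580.2 TPM in MH_38 replicates 1 and 2 and 2136 TPM in replicate 3, against 2683, 2508 and 2323 TPM in Ken_38. Of 36 tested entries 4 were higher and 10 lower (11.1% and 27.8%, beside 19.9% and 14.7% of all tested genes). Under library totals 7 were higher and 7 lower. There were 24 lower without MH_38 replicate 3 and 6 without Ken_38 replicate 3. The lower count was 3 without Ken_38 replicate 1 and 2 without MH_38 replicate 1, MH_38 replicate 2 or Ken_38 replicate 2. Protochlorophyllide reductase, the light-driven enzyme late in this pathway, was among the 10 lower entries. PORB (TRINITY_DN39124_c0_g3) had 36.8, 22.3 and 302 TPM in MH_38 and 848, 819 and 694 TPM in Ken_38, so replicate 3 lay between the other MH_38 leaves and Ken_38. Its log2 difference was -2.85 ± 0.89 (adjusted p = 0.0268) with all leaves and -5.04 without MH_38 replicate 3 (adjusted p = 0.000136), and it lost its call, at adjusted p of up to 0.0952, without any 1 of the other 5 libraries. CAO (TRINITY_DN60020_c2_g1), chlorophyllide a oxygenase, which makes chlorophyll b, held in every such fit. It had 15.1, 10.5 and 23.1 TPM in MH_38 and 39.2, 37.4 and 39.3 TPM in Ken_38 (log2 -1.50 ± 0.31, adjusted p = 0.00127; -2.10 without MH_38 replicate 3). In unheated leaves CAO had 92.6 ± 11.0 TPM in MH and 22.3 ± 0.689 TPM in Ken (SD, n = 3 each), so the difference between the temperatures was -3.56 (adjusted p = 6.76e-05). HEMC (TRINITY_DN50047_c0_g1), porphobilinogen deaminase, an early enzyme, was higher, at 24.2, 21.3 and 34.4 TPM in MH_38 and 7.17, 10.2 and 9.24 TPM in Ken_38 (log2 1.51 ± 0.25, adjusted p = 0.000102).

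**Figure D4:**
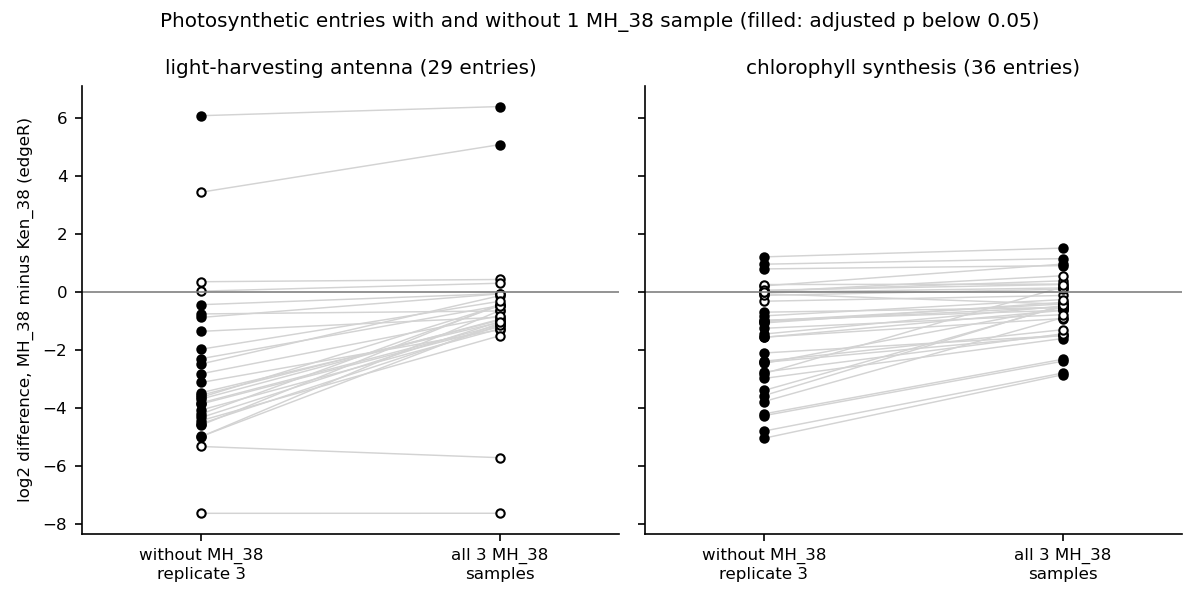
Log2 difference of MH_38 against Ken_38 for each tested antenna and chlorophyll synthesis entry, without MH_38 replicate 3 (left of each panel) and with all 3 MH_38 leaves (right), lines joining the same entry. The antenna median is -3.55 without that replicate and -0.82 with it, and the chlorophyll synthesis median -1.06 and -0.48.

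Genes of mitochondrial respiration were higher in MH_38 by their summed level, and most single entries were not called. Of 103 tested entries 33 were higher and 14 lower (32.0% and 13.6%, beside 19.9% and 14.7% of all tested genes; median 0.37), and none of the 6 leave-one-library-out fits moved either count by more than 1.5 times, while library totals gave 54 and 9. Their sum was 3001, 3100.0 and 2832 TPM in MH_38 and 2075, 2009 and 2104 TPM in Ken_38, without overlap, and replicate 3 was close to the other MH_38 leaves. At 25 °C the order was the other one, with 2853 ± 128 TPM in MH and 3326 ± 231 TPM in Ken (SD, n = 3 each). In the difference between the temperatures 28 entries were called with MH higher at 38 °C and 1 with MH lower. Entries of respiratory complex IV were more often lower, 7 of 21 against 3 higher (33.3% and 14.3%), with 7 lower without any single library. By sum complex IV was still higher, with 351.5, 369 and 333 TPM in MH_38 and 294, 300 and 317 TPM in Ken_38. At 25 °C 8 complex IV entries were lower and 0 higher in MH.

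Alternative NAD(P)H dehydrogenases, which feed electrons into the respiratory chain without pumping protons, were part of this list, with 4 of 6 higher and 1 lower (0 lower without MH_38 replicate 1 or 2). NDB1 (TRINITY_DN40166_c0_g1) had 23.3, 37.5 and 11.3 TPM in MH_38 and 4.24, 5.13 and 5.65 TPM in Ken_38 (log2 2.24 ± 0.29, adjusted p = 5.62e-06). NDB2 (TRINITY_DN56311_c1_g2) had 23.7, 31.1 and 9.33 TPM in MH_38 and 4.38, 4.26 and 5.54 TPM in Ken_38 (log2 1.87 ± 0.27, adjusted p = 2.38e-05). Ubiquinol oxidases, which pass electrons to oxygen by the alternative route, gave 0 calls among 4 entries with TMM scaling and 2 higher under library totals, RLE factors or without MH_38 replicate 3, and summed to 151, 167 and 119 TPM in MH_38 and 71.7, 66.7 and 74.0 TPM in Ken_38. ATP9 (TRINITY_DN41971_c2_g5), the ring subunit of ATP synthase, had 40.4, 44.6 and 19.6 TPM in MH_38 and 2.44, 3.99 and 3.76 TPM in Ken_38 (log2 3.08 ± 0.36, adjusted p = 3.80e-06). It was lower in unheated MH (9.44 ± 2.46 TPM) than in unheated Ken (25.9 ± 10.5 TPM; SD, n = 3 each).

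Metallothioneins, small cysteine-rich proteins that bind metal ions, were lower in MH_38 in 4 of 5 tested entries (2 without MH_38 replicate 1 or Ken_38 replicate 2), and 1 was higher without MH_38 replicate 2 or 3. They summed to 574, 757 and 259 TPM in MH_38 and 4920.0, 3945 and 4379 TPM in Ken_38. Ken also had the higher sum in unheated leaves, 1775 ± 1119 TPM in MH and 16,701 ± 1109 TPM in Ken (SD, n = 3 each). The entry TRINITY_DN48994_c0_g2 had 95.8, 69.8 and 20.2 TPM in MH_38 and 2421, 1741 and 2095 TPM in Ken_38 (log2 -5.35 ± 0.52, adjusted p = 5.56e-06).

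Antioxidant enzymes were higher in 16 and lower in 7 of 68 tested entries (23.5% and 10.3%), near the shares of all tested genes, with 17 lower without MH_38 replicate 3. An entry of APX1 (TRINITY_DN51750_c2_g4), cytosolic ascorbate peroxidase, had 614, 604 and 358 TPM in MH_38 and 0 counts in all Ken_38 leaves, at least 205-fold higher, and 689.9 ± 81.7 TPM in unheated MH and 0 in unheated Ken. Over all 3 APX1 entries the gap was smaller, 1030.0 ± 260.5 TPM in MH_38 and 319 ± 47.3 TPM in Ken_38 (SD, n = 3 each). Catalase CATB (TRINITY_DN62244_c0_g2) had 1.30, 1.30 and 2.32 TPM in MH_38 and 17.4, 16.4 and 15.9 TPM in Ken_38 (log2 -3.03 ± 0.31, adjusted p = 1.97e-07), and the difference between the temperatures was called (-1.84, adjusted p = 0.00467). Glutathione S-transferases, which attach glutathione to reactive compounds, were higher in 6 and lower in 11 of 36 (8 and 7 under library totals). The 6 and 11 are 16.7% and 30.6%, beside 19.9% and 14.7% of all tested genes. Their lower count was 6 without MH_38 replicate 1 or Ken_38 replicate 2 and 7 without Ken_38 replicate 1 or 3. GSTU22 (TRINITY_DN58547_c0_g4) stood far apart, with 522, 819 and 252 TPM in MH_38 and 8.28, 5.15 and 5.86 TPM in Ken_38. Its log2 difference of 6.22 ± 0.64 (adjusted p = 8.95e-06) exceeded that at 25 °C by 3.90 ± 0.79 (adjusted p = 0.00654). Over both GSTU22 entries the means were 533.5 ± 285 TPM in MH_38 and 16.8 ± 1.95 TPM in Ken_38 (SD, n = 3 each).

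Of 33 tested sugar transporters, 10 were lower in MH_38 (30.3%, beside 14.7% of all tested genes) and 0 higher, with a median of -0.76, and under library totals 9 were lower and 1 higher. There were 6 lower without MH_38 replicate 1 or 2 and 20 without MH_38 replicate 3. SWEET carriers, which let sugars pass across membranes in both directions, gave 6 of 10 lower and summed to 68.3, 57.4 and 191 TPM in MH_38, against 260, 238 and 223 TPM in Ken_38, and no single library moved that count by more than 1.5 times. Unheated leaves had 134 ± 21.2 TPM in MH and 156 ± 17.2 TPM in Ken (SD, n = 3 each), with 4 SWEET entries higher and 1 lower in MH. SWEET2A (TRINITY_DN46851_c0_g2) had 32.6, 33.7 and 87.6 TPM in MH_38 and 115, 110.2 and 89.2 TPM in Ken_38 (log2 -1.45 ± 0.29, adjusted p = 0.000852; -2.06 without MH_38 replicate 3), replicate 3 being just below the lowest Ken_38 leaf. The hexose carrier STP5 had 2 entries and both were lower in all 3 MH_38 leaves. TRINITY_DN42268_c0_g2 had 7.48, 12.8 and 15.1 TPM in MH_38 and 42.0, 32.9 and 27.5 TPM in Ken_38 (log2 -2.04 ± 0.34, adjusted p = 9.88e-05; -2.68 without MH_38 replicate 3). TRINITY_DN42268_c0_g3 had 8.93, 8.56 and 14.1 TPM in MH_38 and 33.8, 28.1 and 25.6 TPM in Ken_38 (log2 -1.83 ± 0.23, adjusted p = 2.82e-06). Both differences lay below those at 25 °C, by -2.73 (adjusted p = 0.000625) and -2.31 (adjusted p = 6.09e-05).

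Starch and sucrose enzymes had 11 higher and 24 lower entries of 87 tested, but 19 higher and 8 lower under library totals, where the median of -0.22 became 0.10. The 11 and 24 are 12.6% and 27.6%, beside 19.9% and 14.7% of all tested genes. Without MH_38 replicate 2 there were 15 lower, and 13 without Ken_38 replicate 2. BAM9 (TRINITY_DN49248_c2_g2), a beta-amylase relative without enzyme activity that regulates starch breakdown in Arabidopsis, had 139, 117 and 260 TPM in MH_38 and 496, 475 and 479 TPM in Ken_38 (log2 -1.78 ± 0.27, adjusted p = 8.94e-05).

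Clock genes, which time daily rhythms, were lower in 14 and higher in 2 of 30 tested entries (9 and 5 under library totals). The 14 and 2 are 46.7% and 6.67%, beside 14.7% and 19.9% of all tested genes. There were 8, 7, 9 and 8 lower without MH_38 replicate 1, MH_38 replicate 2, Ken_38 replicate 1 and Ken_38 replicate 2, and the higher count 6 without MH_38 replicate 3. The sampling hour is not given in the sources used here, and whether both materials were sampled at the same hour was not tested. TIME FOR COFFEE (TIC), a nuclear regulator of the clock and of starch metabolism in Arabidopsis, was lower in all 7 tested entries, 4 of them under each other scaling and without MH_38 replicate 2, Ken_38 replicate 1 or Ken_38 replicate 2. The TIC entries summed to 215, 165 and 286 TPM in MH_38 and 474, 387 and 414 TPM in Ken_38, while unheated leaves had 130 ± 27.8 TPM in MH and 121 ± 26.5 TPM in Ken (SD, n = 3 each). TRINITY_DN62946_c1_g1, a TIC entry, had 29.7, 23.5 and 38.8 TPM in MH_38 and 102, 79.98 and 82.8 TPM in Ken_38 (log2 -1.32 ± 0.25, adjusted p = 0.000365).

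An entry each of the morning-expressed clock repressors CCA1 and LHY changed order between the temperatures. CCA1 (TRINITY_DN51203_c0_g1) had 44.7, 39.4 and 57.6 TPM in MH_38 and 91.0, 80.8 and 76.0 TPM in Ken_38, and 44.1 ± 11.7 TPM in unheated MH and 12.46 ± 1.20 TPM in unheated Ken (SD, n = 3 each). LHY (TRINITY_DN63222_c1_g3) had 47.1, 49.2 and 72.0 TPM in MH_38 and 113, 118 and 112 TPM in Ken_38, and 42.9 ± 14.4 TPM in unheated MH and 13.6 ± 3.58 TPM in unheated Ken. Their log2 differences were -1.06 ± 0.25 (adjusted p = 0.00224) and -0.95 ± 0.23 (adjusted p = 0.00358) at 38 °C, and 1.81 and 1.75 at 25 °C. The differences between the temperatures, -2.87 ± 0.35 (adjusted p = 2.29e-05) and -2.70 ± 0.33 (adjusted p = 2.85e-05), were called for both. Over all 3 entries of each name, CCA1 had 61.3 ± 3.62 TPM in MH_38 and 100.2 ± 7.77 TPM in Ken_38, while LHY had 259 ± 51.2 TPM in MH_38 and 275 ± 27.3 TPM in Ken_38 (SD, n = 3 each), a difference within the spread.

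Ethylene-responsive factors (ERFs), a family of stress and hormone regulators, were lower in 19 and higher in 8 of 74 tested entries (9 and 9 under library totals). The 19 and 8 are 25.7% and 10.8%, beside 14.7% and 19.9% of all tested genes. The lower count was 11, 7, 32, 10 and 12 without MH_38 replicates 1, 2 and 3 and Ken_38 replicates 1 and 2, and the higher count was 4 without MH_38 replicate 1, Ken_38 replicate 1 or Ken_38 replicate 2 and 5 without Ken_38 replicate 3. RAP2-2 (TRINITY_DN59149_c0_g6), an ERF known from low-oxygen responses, had 182, 141 and 172 TPM in MH_38 and 382, 362 and 369 TPM in Ken_38 (log2 -1.46 ± 0.15, adjusted p = 2.11e-07). EIN3 (TRINITY_DN60110_c0_g6), the master transcription factor of ethylene signalling, had 86.4, 77.0 and 118 TPM in MH_38 and 210.4, 180 and 176 TPM in Ken_38 (log2 -1.23 ± 0.18, adjusted p = 2.64e-05). Neither gene was called in unheated leaves, RAP2-2 with 202 ± 24.8 TPM in MH and 186 ± 14.6 TPM in Ken and EIN3 with 66.3 ± 4.70 TPM in MH and 58.9 ± 5.24 TPM in Ken (SD, n = 3 each; log2 0.11 and 0.17).

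Abscisic acid and dehydration genes differed in single members. DPBF3 (TRINITY_DN40955_c2_g1), a bZIP factor of abscisic acid signalling, had 22.5, 14.7 and 26.8 TPM in MH_38 and 59.5, 54.4 and 53.8 TPM in Ken_38 (log2 -1.54 ± 0.22, adjusted p = 1.42e-05). The dehydrin COR410 (TRINITY_DN51367_c1_g6), named from wheat, had 349, 259 and 336 TPM in MH_38 and 652, 678 and 663 TPM in Ken_38 (log2 -1.32 ± 0.17, adjusted p = 4.65e-06). The receptor entry PYL8 (TRINITY_DN54230_c0_g7) had 75.7, 50.5 and 63.2 TPM in MH_38 and 0.82, 0.70 and 1.52 TPM in Ken_38 (log2 5.65 ± 0.43, adjusted p = 2.98e-09), and over all 3 PYL8 entries 167 ± 24.3 TPM in MH_38 and 76.2 ± 8.90 TPM in Ken_38 (SD, n = 3 each).

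Resistance genes of the NBS-LRR class, which detect pathogen effectors inside the cell, were more often lower than higher in MH_38. Of 367 tested entries 155 were lower and 61 higher (42.2% and 16.6%, beside 14.7% and 19.9% of all tested genes). The median was -0.89, and no single library moved either count by more than 1.5 times. Their sum was 3702, 3185 and 8339 TPM in MH_38 and 9435, 9037 and 8981 TPM in Ken_38. Replicates 1 and 2 had well under the level of any Ken_38 leaf, and replicate 3 lay below the lowest. In unheated leaves the order was the other one, 7886 ± 927 TPM in MH and 5499 ± 777 TPM in Ken (SD, n = 3 each), with 91 entries higher and 56 lower in MH and a median of 0.36. Over all tested genes 10.1% were higher and 11.7% lower in unheated MH. In the difference between the temperatures 65 entries were called with MH lower at 38 °C and 3 with MH higher. The shares of all tested genes in these directions were 4.78% and 6.07%. The lower calls at 38 °C were not limited to 1 kind of entry. Lower were 30 of 65 RPS2 entries, 83 of 189 RGA entries and 42 of the 113 others, against 7, 26 and 28 that were higher. The difference between the temperatures was called with MH lower at 38 °C in 6 RPS2 entries, 46 RGA entries and 13 others. It was called with MH higher in 0, 1 and 2 of them. Unlike the whole list, RPS2 entries were more often lower than higher in unheated MH, 21 against 11.

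Some resistance gene entries had reads in 1 material and none in the other. An RPS2 entry, TRINITY_DN62041_c0_g1, had 0 counts in MH_38 and 57.8, 50.3 and 41.0 TPM in Ken_38, at least 1524-fold lower, and 26.01 ± 2.99 TPM in unheated Ken (SD, n = 3) and 0 in unheated MH. An RGA1 entry, TRINITY_DN56547_c0_g2, had 27.6, 23.5 and 49.2 TPM in MH_38 and 0 counts in Ken_38, at least 1129-fold higher. Summed over all 47 RPS2 entries the level was 434 ± 252 TPM in MH_38 and 907 ± 6.43 TPM in Ken_38 (SD, n = 3 each). The sum over all 16 RGA1 entries ran against the RGA1 entry above, with 286.5 ± 55.4 TPM in MH_38 and 422 ± 47.7 TPM in Ken_38.

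Chitinases and pathogenesis-related (PR) proteins summed to 1288, 1409 and 1321 TPM in MH_38 and 3193, 2895 and 2573 TPM in Ken_38, without overlap, whereas unheated leaves had 1991 ± 298 TPM in MH and 2090.0 ± 67.4 TPM in Ken (SD, n = 3 each). By entry the division was weaker, with 13 higher and 22 lower of 77 tested (16.9% and 28.6%, beside 19.9% and 14.7% of all tested genes). The median of -0.10 was 0.16 under library totals, 0.02 with RLE factors and 0.03 with factors of described genes. The higher count was 8 without MH_38 replicate 2, 7 without Ken_38 replicate 1 and 6 without Ken_38 replicate 2. A trypsin and chymotrypsin inhibitor, TRINITY_DN59125_c0_g3, of a kind that blocks the gut enzymes of herbivores, had 7.41, 10.9 and 21.0 TPM in MH_38 and 3224, 3711 and 6039 TPM in Ken_38 (log2 -8.58 ± 0.80, adjusted p = 6.15e-06; -9.20 without MH_38 replicate 3). Unheated leaves had 4.98 ± 2.76 TPM of it in MH and 729 ± 68.5 TPM in Ken (SD, n = 3 each).

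Enzymes of phenylpropanoid and lignin synthesis summed to 1907, 1989 and 1670.0 TPM in MH_38 and 1113, 1169 and 1302 TPM in Ken_38, without overlap. Of 79 tested, 24 were higher and 14 lower (30.4% and 17.7%, beside 19.9% and 14.7% of all tested genes), with a median of 0.43. The lower count was 8 without MH_38 replicate 1 or 2 and 9 without Ken_38 replicate 2. Xylem markers moved with them. Of 24 tested xylem markers 11 were higher and 1 lower (45.8% and 4.17%). They summed to 273, 312 and 362 TPM in MH_38 and 185, 172 and 181 TPM in Ken_38, with 0 of the 24 at 0 in all 3 MH_38 leaves and 1 in all 3 Ken_38 leaves. The higher count was 6 without MH_38 replicate 2 or Ken_38 replicate 2, 5 without Ken_38 replicate 1 and 7 without Ken_38 replicate 3, and the lower count 6 without MH_38 replicate 3 and 0 without MH_38 replicate 2. In unheated leaves 3 xylem markers were higher and 0 lower in MH, with 753 ± 210 TPM in MH and 551 ± 115 TPM in Ken (SD, n = 3 each). CESA7 (TRINITY_DN59400_c1_g1), a cellulose synthase of secondary walls, had 35.2, 51.7 and 17.1 TPM in MH_38 and 5.07, 6.76 and 6.44 TPM in Ken_38 (log2 1.95 ± 0.37, adjusted p = 0.000388). LAC17 (TRINITY_DN54367_c0_g1), a laccase that polymerises lignin, had 10.5, 11.4 and 0.02 TPM in MH_38 and 0.07, 0.06 and 0.05 TPM in Ken_38 (log2 6.64 ± 1.74, adjusted p = 0.0113), so MH_38 replicate 3 was at the level of Ken_38. Phloem markers went the other way, with 9 of 14 lower and 2 higher (64.3% and 14.3%), and summed to 116, 102 and 132 TPM in MH_38 and 209, 184 and 166 TPM in Ken_38. Their lower count was 4 without MH_38 replicate 1 and 5 without MH_38 replicate 2 or Ken_38 replicate 1, and their higher count 1 without any 1 library but MH_38 replicate 3. Under library totals 4 phloem markers were lower, and 6 with RLE factors or factors of described genes. In unheated leaves 6 were already lower and 2 higher in MH, with 132.5 ± 6.34 TPM in MH and 167 ± 10.3 TPM in Ken (SD, n = 3 each). The difference between the temperatures was called with MH lower at 38 °C in 2 phloem markers and with MH higher in 0. The part of vein tissue in these results, and of phloem in those of sugar transporters, was not tested.

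Wall-loosening and pectin enzymes, which let cells expand, summed to 1892, 1796 and 2903 TPM in MH_38 and 3839, 4007 and 4093 TPM in Ken_38. Count and sum went different ways, since of 120 tested entries 26 were higher and 16 lower (21.7% and 13.3%, near the shares of all tested genes; median 0.76). Without MH_38 replicate 3, 23 were higher and 35 lower and the median was -0.18, and the higher count was 16, 15 and 17 without Ken_38 replicates 1, 2 and 3.

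Cytosolic ribosomal proteins had 17 higher and 53 lower entries of 250 tested (6.8% and 21.2%, beside 19.9% and 14.7% of all tested genes). Their median was -0.32. Under library totals 47 were higher and 32 lower, while 113 were lower without MH_38 replicate 3 and 10 higher without Ken_38 replicate 1. At 25 °C 6 were higher and 101 lower in MH, so the difference between the temperatures was called upwards in 32 and downwards in 3. Sequences of transposable elements stand beside 19.9% higher and 14.7% lower calls over all tested genes. Copia-type retrotransposons gave 168 higher and 65 lower of 712 tested (23.6% and 9.13%; 107 higher without Ken_38 replicate 2), and Gypsy-type elements 115 higher and 59 lower of 433 (26.6% and 13.6%). Their sums overlapped or nearly so, with 2746, 3394 and 2687 TPM in MH_38 and 2449, 1944 and 2650.0 TPM in Ken_38 for Copia, and 2048, 2668 and 1519 TPM in MH_38 and 1692, 1229 and 1801 TPM in Ken_38 for Gypsy.

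Many of the largest differences were of genes read in 1 material and not in the other. With at least 10 TPM in MH_38 and 0 counts in Ken_38 there were 214 genes, of which 125 had 0 counts in all 9 Ken libraries of the series and 41 had a description. The reverse held for 128 genes, of which 80 had 0 counts in all 9 MH libraries and 26 had a description. A receptor-like kinase entry, At4g29180 (TRINITY_DN46232_c0_g4), had 0 counts in MH_38 and 52.1, 45.4 and 44.6 TPM in Ken_38, at least 553-fold lower. An alpha-humulene synthase entry, ZSS1 (TRINITY_DN57290_c0_g2), which makes a volatile terpene, had 7.49, 8.46 and 198 TPM in MH_38 and 0 counts in Ken_38, at least 1221-fold higher, with 136 ± 25.2 TPM in unheated MH (SD, n = 3). The bound was carried by MH_38 replicate 3 and was at least 123.5-fold without it. Over all 5 ZSS1 entries the means were 98.4 ± 139.5 TPM in MH_38 and 11.5 ± 6.09 TPM in Ken_38 (SD, n = 3 each). Some assembly clusters, the parts of an identifier before its last number, held both directions. Of 19,758 clusters with at least 2 tested genes, 2,128 (10.77%) held a gene called higher and another called lower, and so did 362 of 3,217 gene names with at least 2 tested entries. These stand beside 19.9% higher and 14.7% lower calls over all tested genes. The share that such calls would give in clusters of unrelated genes was not worked out. Alleles, paralogs and fragments of a gene could not be separated, and neither could a gene and its antisense partner, since no strand setting is given.

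BURP-domain genes, which include dehydration-induced proteins, differed by large factors at high level. RD22 (TRINITY_DN54005_c1_g3) had 0.53, 0.46 and 0 TPM in MH_38 and 1433, 871 and 1554 TPM in Ken_38 (log2 -12.14 ± 1.30, adjusted p = 6.10e-05), and unheated leaves had 0 TPM in MH and 0.45 ± 0.445 TPM in Ken (SD, n = 3 each). BURP3 (TRINITY_DN48122_c2_g1) had 0.80, 0.62 and 0 TPM in MH_38 and 1719, 1122 and 1871 TPM in Ken_38 (log2 -11.97 ± 1.26, adjusted p = 5.32e-05; -12.69 without MH_38 replicate 1). Both were thus almost confined, among the 12 libraries at 38 °C and 25 °C, to the 3 Ken_38 leaves. The difference between the temperatures was not called for either (adjusted p = 1), where unheated MH had 0 counts and the fitted value has no usable error. Over all entries of a name, RD22 had 0.34 ± 0.271 TPM in MH_38 and 1289 ± 363 TPM in Ken_38, and BURP3 643 ± 564 TPM in MH_38 and 4465 ± 692 TPM in Ken_38 (SD, n = 3 each).

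Differences at 38 °C were in part those of unheated leaves. At 25 °C 10.1% of tested genes were higher and 11.7% lower in MH, 15,278 in all. The 2 comparisons use different libraries, and 7,293 genes were called in both with the same sign, 30.05% of the calls at 38 °C and 47.74% of those at 25 °C. Another 896 were called in both with opposite signs, 531 of them higher in MH at 38 °C and lower at 25 °C and 365 the reverse. Across all tested genes the log2 differences at 38 °C and 25 °C correlated at r = 0.493, and at 0.513 over described genes, a description across genes that are not independent. The test of one difference against the other called 7,591 genes (10.8%), with MH higher at 38 °C than its difference at 25 °C would give in 4,247 and lower in 3,344. Without MH_38 replicate 3 it called 14,840 genes, 6,927 with MH higher and 7,913 with MH lower, and without Ken_38 replicate 1 it called 5,023, 2,753 of them with MH higher. Its calls with MH lower were 2,213 without Ken_38 replicate 2 and 2,200 without replicate 3 of unheated Ken. Of the 16,079 genes called at 38 °C and not at 25 °C, 12,657 were not called in that test and are not shown to differ between the temperatures.

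**Figure D5:**
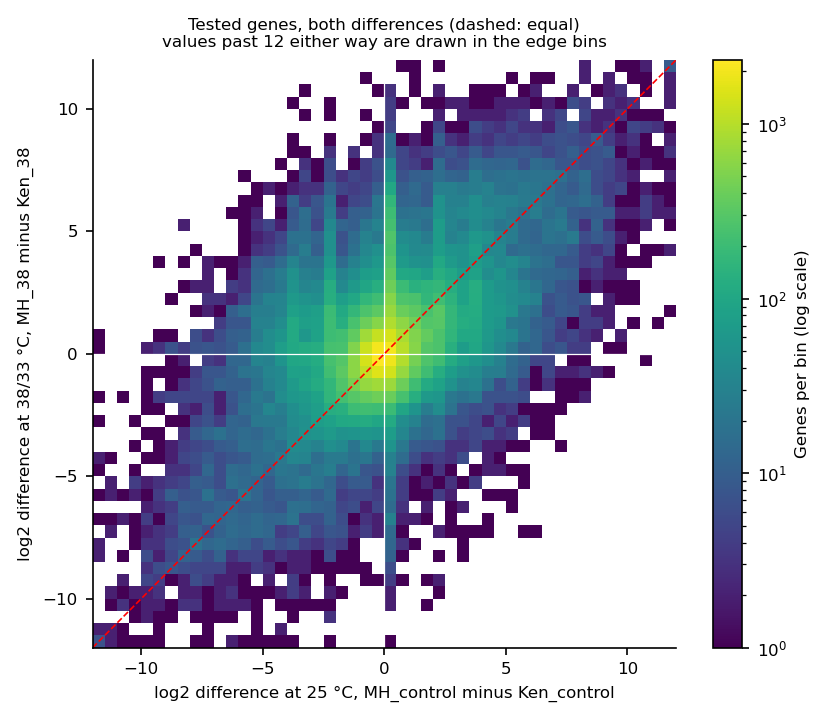
Number of tested genes (shade) by their log2 difference of MH against Ken at 25 °C (horizontal) and at 38/33 °C (vertical), with a dashed line where the differences are equal and values past 12 placed in the edge bins. The cloud is wide and tilted along the dashed line, with r = 0.493 over 70,022 genes. A vertical band holds genes whose fitted difference was near 0 at 25 °C and far from 0 at 38/33 °C. It lies in the bin that starts at 0 at 25 °C. At 38/33 °C differences from 4.0, that bin holds 258 genes, against 47 and 56 in the bins that start at -0.5 and 0.5. Genes without counts in both unheated groups also have a fitted difference of 0 there. Their number in the band was not counted.

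Among the genes that changed order, BXL2 (TRINITY_DN57483_c2_g2), a beta-xylosidase of the cell wall, had 26.6, 13.0 and 26.5 TPM in MH_38 and 308, 160.1 and 95.0 TPM in Ken_38, against 7.24 ± 7.86 TPM in unheated MH and 0.457 ± 0.162 TPM in unheated Ken (SD, n = 3 each). MIOX1 (TRINITY_DN53192_c1_g1), inositol oxygenase, had 6.32, 7.63 and 5.03 TPM in MH_38 and 84.4, 71.5 and 24.2 TPM in Ken_38. Its unheated levels were 26.9 ± 10.5 TPM in MH and 3.00 ± 1.09 TPM in Ken (SD, n = 3 each). Both genes were lower in MH in the heat and higher in MH at 25 °C. Their log2 differences were -3.63 and -3.47 at 38 °C and 3.19 and 2.94 at 25 °C. The opposite order was seen in the nectar protein entry NECI (TRINITY_DN61490_c1_g2), with 61.0, 61.1 and 11.9 TPM in MH_38 and 1.76, 3.77 and 1.64 TPM in Ken_38, against 19.4 ± 14.6 TPM in unheated MH and 83.3 ± 23.7 TPM in unheated Ken (SD, n = 3 each). The receptor-like protein RLP12 (TRINITY_DN37278_c0_g1) had 14.4, 10.9 and 44.6 TPM in MH_38 and 1.13, 1.39 and 1.76 TPM in Ken_38 (log2 3.76, and 2.75 without MH_38 replicate 3), against 2.83 ± 0.532 TPM in unheated MH and 11.0 ± 3.20 TPM in unheated Ken (SD, n = 3 each). In these 4 genes the 3 MH_38 leaves did not overlap with the 3 Ken_38 leaves, and the call in the difference between the temperatures had adjusted p between 4.03e-05 and 0.00528.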

How the data were processed

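Leaf RNA was extracted with Trizol and sequenced from libraries made by Illumina protocols, and adapters were trimmed with cutadapt 1.9, per the submitters' processing notes and the labels' protocols. The deposited table gives, per gene and library, an estimated count and a second, unlabelled value that sums to 967,894 to 991,008 per library and is read here as TPM, both made by the authors. The labels name no quantifier. A total of 88.9% to 91.6% of the estimated counts of the 6 libraries were whole within 1e-06, and all were rounded. Genes were kept with filterByExpr of edgeR 4.0.16 in R 4.3.3 (minimum count 10, total 15), scaled with TMM and fitted with the robust quasi-likelihood model over 6 group means of 18 libraries. SE is the log2 difference divided by the square root of F. On simulated data with 200 changed genes, the fit recovered the sign and size of the changes. Those data had the same spread in every group and no library set apart, so the check does not cover the unequal spread of the real groups. The gene lists, and the comparison itself, were chosen with earlier results of these data known. Genes are named by rule. These are the 12 largest called differences each way among described, non-overlapping genes whose higher group averages 10 TPM or more, the 2 members with the smallest adjusted p in each list, the 6 largest each way also called in the difference between 38 °C and 25 °C, and the 4 largest each way with opposite signs at 25 °C. In addition, 21 list members were named after their values were seen. A gene with 0 counts in a group was set against a floor of 3 counts per library. Replicate numbers do not pair the libraries. The alternatives were RLE factors, library totals, TMM of described genes, a minimum count of 50, no filter, a fit that is not robust, fewer groups, DESeq2 1.42.0, stricter thresholds, a replicate block and leaving out each library. Tables were made with Python 3.11.15, pandas 2.3.3 and numpy 2.4.6, and plots with matplotlib 3.10.9. No sequences are shown, since no reference was used.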

Additional observations from a re-analysis of the deposited data

Results flagged for a closer look

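For 36 of the genes named above, the log2 difference of MH against Ken at 38 °C and the one at 25 °C differed by an edgeR test of the difference itself (adjusted p below 0.05). The values below are the log2 difference at 38 °C minus that at 25 °C. Proteasome entries were all on the positive side, with 1.62 and 1.86 for the PAB1 entries, 1.99 for PBB2, 2.20 for RPN11 and 7.43 for PBA1. So were ATG8C (2.55) and ATG12 (1.28), and the HSP90-6 entries with 1.18, 1.95, 1.17, 1.66 and 1.56. HSFA3 (3.42), NDB1 (1.33), NDB2 (1.23), ATP9 (4.55) and GSTU22 (3.90) were positive too, as were RLP12 (5.43) and NECI (6.13). The negative side held the sugar carriers STP5 (-2.73 and -2.31) and SWEET2A (-2.48), the clock genes CCA1 (-2.87), LHY (-2.70) and TIC (-1.19), and the regulators RAP2-2 (-1.57), EIN3 (-1.39) and DPBF3 (-2.25). It also held CAO (-3.56), PPD7 (-2.71), CATB (-1.84), COR410 (-1.62), the lower HSFA2B entry (-1.05), BXL2 (-6.82), MIOX1 (-6.40) and MYB114 (-12.16). No test for a sample far from the others of its group was made, since groups held 3 libraries.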

How the results depend on the processing

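Of the 168 called genes among those named by rule or by choice, 158 kept their direction and call in all 17 alternatives that gave a value, and no called gene changed direction. The single change of sign was in ART2 (TRINITY_DN64136_c3_g1), an rRNA-like transcript that was not called, with a log2 difference of -1.37, between -1.82 and 0.14 when each library was left out (0.14 without Ken_38 replicate 2) and 0.17 without that library and MH_38 replicate 3, an alternative chosen after seeing the data. The 24,268 calls between MH_38 and Ken_38 became 11,321 (6,755 higher, 4,566 lower) when only described genes were tested, which are fewer, and 14,230 (7,769 higher, 6,461 lower) at an adjusted p below 0.01. A fit of the 2 groups alone, which has fewer libraries, gave 16,273 calls, 8,936 higher and 7,337 lower, and the cause of the drop was not tested. Leaving out each library gave 17,608 to 32,704 calls, 9,520 to 17,926 of them higher and 7,767 to 14,778 lower. The 7,591 calls in the difference between 38 °C and 25 °C were 11,554 with DESeq2 (6,727 higher), 12,878 (6,725 lower) without both MH_38 replicate 3 and Ken_38 replicate 2, and 3,202 (1,761 higher, 1,441 lower) at an adjusted p below 0.01, and 5,023 to 14,840 when each library was left out (2,753 to 6,927 higher, 2,200 to 7,913 lower). Where no construction is named, the cause was not tested. With the replicate number as a block there were 22,499 calls (12,435 higher, 10,064 lower) at 38 °C and 7,041 (3,773 higher, 3,268 lower) in the difference. Libraries of one number shared little else, their deviations correlating at 0.037, -0.107 and -0.040 for numbers 1, 2 and 3, so they were not paired. The spread between replicates was wider in MH_38 (biological coefficient of variation 0.599) than in Ken_38 (0.234). The fit over all 18 libraries, which gave the p-values, had a common value of 0.389, below that of MH_38 alone. Genes under the count minimum of 10 were not tested at this depth.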

Other observations

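Enzymes of flavonoid and anthocyanin synthesis, which make leaf and flower pigments, were lower in MH_38 than in Ken_38 in 22 and higher in 9 of 68 tested entries (32.4% and 13.2%, beside 14.7% and 19.9% of all tested genes; 37 lower without MH_38 replicate 3), and summed to 948, 1015 and 1344 TPM in MH_38 and 1349, 1416 and 1488 TPM in Ken_38. An entry of MYB114 (TRINITY_DN55582_c0_g2), a name given in Arabidopsis to a regulator of anthocyanin synthesis, had 0, 0 and 0.71 TPM in MH_38 and 27.8, 52.9 and 83.0 TPM in Ken_38 (log2 -10.16 ± 1.14, adjusted p = 9.80e-06; -12.62 without MH_38 replicate 3). In unheated leaves it had 0.837 ± 1.13 TPM in MH and 0.0867 ± 0.0808 TPM in Ken (SD, n = 3 each), so it was high in Ken_38 leaves alone among these 4 groups. Auxin response genes were lower in 26 and higher in 8 of 100 tested entries (26% and 8%; 53 lower without MH_38 replicate 3), and summed to 1371, 1376 and 1824 TPM in MH_38 and 2016, 1842 and 1863 TPM in Ken_38, each MH_38 leaf lying below the lowest Ken_38 leaf.

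Aquaporins, the water channels of the plasma membrane and vacuole, followed the division among the MH_38 leaves seen in photosynthesis genes. They summed to 3199, 2675 and 8818 TPM in MH_38 and 7530.0, 7239 and 7863 TPM in Ken_38, and 8 of 37 tested entries were higher and 7 lower (21.6% and 18.9%, beside 19.9% and 14.7% of all tested genes). The lower count was 23 without MH_38 replicate 3, 3 without MH_38 replicate 1, Ken_38 replicate 2 or Ken_38 replicate 3 and 4 without MH_38 replicate 2, and the higher count was 5 without Ken_38 replicate 3. Chaperonins, the barrel-shaped folding machines of plastids, mitochondria and cytosol, gave 5 higher and 7 lower of 40 (17.5% lower, beside 14.7% of all tested genes), with 8 higher without MH_38 replicate 3 and 2 without Ken_38 replicate 1. In the difference between the temperatures 10 of them were called with MH higher at 38 °C and 0 with MH lower, since at 25 °C 1 was higher and 18 lower in MH. WRKY factors, regulators of defence, gave 5 higher and 6 lower of 45 (11.1% and 13.3%) and summed to 404, 399 and 455 TPM in MH_38 and 513, 494 and 495 TPM in Ken_38. Their higher count was 3 without MH_38 replicate 1, MH_38 replicate 2 or Ken_38 replicate 2 and 2 without Ken_38 replicate 1 or 3, and their lower count 3 without any of MH_38 replicates 1 and 2 and Ken_38 replicates 1 and 2.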
